A study of Mus musculus with 4 samples.

Results

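Immediate early gene transcripts were measured in the unsorted thymocytes of mice with a hypomorphic (reduced-function) allele of the autophagy gene Atg16l1 and of control mice. The set comprised 10 of the 18193 genes named on the array: the antiproliferative genes Btg2 and Btg1, the AP-1 genes Fos, Jun, Junb and Jund, and the early response genes Ier2, Ier5, Zfp36 and Dusp2. Members of the Egr and Nr4a families were left out of it. The members were every probe set (a group of short probes read together for a transcript) annotated with one of these symbols alone, 17 of the 45037 probe sets kept.

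The series held 4 Affymetrix arrays, 1 per animal, from 2 hypomorph and 2 control mice aged 7 weeks. The labels call the controls wild-type, and the series text describes independent animals, 1 male and 1 female per group, without saying which array belongs to which sex. The labels state neither the strain nor how the allele was made. Atg16l1 itself had signals of 108 and 70.8 in the hypomorphs, against 184 and 241 in the controls (log2 change -1.57, limma adjusted p 0.0142). Its other probe set was too dim to test, at 7.55 and 8.18 against 10.7 and 0.445. All 10 thymocyte markers on the array, such as Rag1, Cd4 and Cd8b1, were well above the array medians, with a lowest signal of 183 against medians of 23.5 to 38.4. In such a bulk sample, fewer cells of a type and less RNA per cell cannot be told apart.

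Immediate early genes are transcribed within minutes of a signal, from factors already present in the cell, without the need for new protein. In thymocytes the T cell receptor is one such signal: it activates MAP kinases, which act through SRF with its ETS-family partners and through CREB on these promoters. FOS pairs with JUN, JUNB or JUND to form AP-1, a transcription factor. BTG2 and BTG1 restrain proliferation and recruit the CCR4-NOT complex, which shortens mRNA tails. ZFP36 binds AU-rich mRNAs and speeds their decay, and DUSP2 removes phosphate from MAP kinases in the nucleus, so that both limit the response.

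None of the 10 genes was called different between hypomorph and control thymocytes. Of the 17 probe sets, 15 were bright enough to be tested and 0 of 15 passed a limma adjusted p of 0.05, where 14 of all 22519 tested probe sets passed (0.0622%). Their adjusted p-values ran from 0.281 to 0.989. At an unadjusted p under 0.05 there was 1 member probe set, lower in the hypomorphs, against 1.19% of all tested probe sets that were lower and 14.9% that were higher at that level. The gene with the clearest departure was Btg2, whose probe sets had changes of opposite sign. The Ier5 probe sets were all higher in the hypomorph arrays, the brightest Jun probe set lay on the same side, and the other 7 genes had changes below the median of all tested probe sets. With 2 animals a group, the smallest p of an exact permutation test is 0.333, so single values were read against the variance that limma shares over all tested probe sets.

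All changes below are hypomorph minus control on the log2(signal + 2.29) scale, after each array had been centred on the common median, since the deposited values were not on a common level. This scale understates the change of dim probe sets. After centring the median change of all tested probe sets was still 0.18, so a change of 0.18 is what a typical probe set showed. The 15 tested member probe sets had a median change of 0.13, and 5 of them lay above the overall median and 10 below it. Without control replicate 1, 8 of 15 lay above that setting's own median. Counting each gene once by its brightest probe set, the median was 0.12 and 2 of 10 genes, Jun and Ier5, lay above. For comparison, 5740 of all 10235 tested genes lay above the same value.

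**Figure D1:**
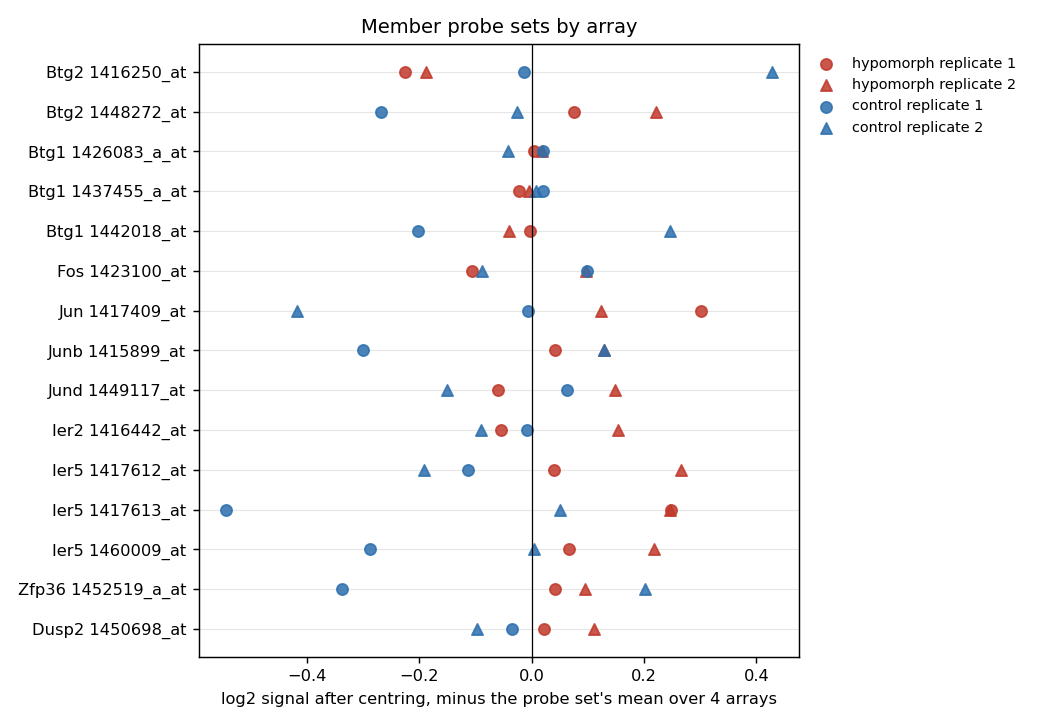
Each of the 15 tested member probe sets (rows) on each array: the horizontal axis is the centred log2 signal minus that probe set's mean over the 4 arrays, red for hypomorph, blue for control, circles for replicate 1 and triangles for replicate 2. The red and blue points of Btg2 1416250_at and of all 3 Ier5 probe sets lie apart, those of Fos, Junb, Jund, Ier2 and Zfp36 are mixed, and the Btg1 points of both brighter probe sets lie almost on each other.

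Promoters of 9 of the 10 genes (all but Ier2) had an entry in the RefSeq table of build GRCm38.p6. The windows ran from 250 bases before to 50 bases after the annotated start and were searched on both strands for the CREB element TGACGTCA, the AP-1 site TGANTCA, the TATA box TATAAA and the SRF CArG box. The bases before the start are shown for 3 of them, because each holds a different one of these motifs, in capitals: Btg2 the CREB element, Fos the TATA box, a core promoter element that is not specific to early response genes, and Zfp36 the CArG box. They lie at chr1:134079156-134079405 (minus strand), chr12:85473640-85473889 (plus strand) and chr7:28379229-28379478 (minus strand), and are written 5′ to 3′ in the direction of transcription.
Btg2: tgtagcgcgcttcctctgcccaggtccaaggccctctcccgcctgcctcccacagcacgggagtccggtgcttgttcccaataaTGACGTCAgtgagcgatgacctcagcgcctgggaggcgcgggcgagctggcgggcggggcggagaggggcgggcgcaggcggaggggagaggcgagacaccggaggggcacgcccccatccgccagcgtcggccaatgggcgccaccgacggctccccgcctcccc
Fos: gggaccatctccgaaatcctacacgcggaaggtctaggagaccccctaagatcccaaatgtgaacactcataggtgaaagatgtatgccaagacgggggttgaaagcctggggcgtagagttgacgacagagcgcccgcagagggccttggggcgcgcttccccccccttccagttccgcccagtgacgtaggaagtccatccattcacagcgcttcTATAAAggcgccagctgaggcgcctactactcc
Zfp36: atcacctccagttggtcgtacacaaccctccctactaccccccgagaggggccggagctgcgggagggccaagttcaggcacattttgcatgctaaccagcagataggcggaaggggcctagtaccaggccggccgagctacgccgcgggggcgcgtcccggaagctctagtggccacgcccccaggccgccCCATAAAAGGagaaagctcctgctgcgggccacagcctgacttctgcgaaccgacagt

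The CREB element of Btg2 lay at -166 to -159 from the start, the TATA box of Fos at -33 to -28 and the CArG box of Zfp36 at -58 to -49. The CREB element was found in 1 of the 9 member promoters, the CArG box in 1 and the TATA box in 3 (Fos, Btg1 and Junb). Over all 32851 promoter windows of the table the shares were 1.79%, 1.63% and 13.6%. The TATAAA match of Btg1 lay at -26 to -21, whereas that of Junb lay at 1 to 6, after the start and not upstream of it. The AP-1 site was in none of the 9 and in 7.81% of all windows. These are matches of letters, with no binding measured in the series, and no motif overlapped another in the sequences shown. Only exact matches inside the windows were counted. Inexact sites and sites farther from the start were not searched for. A promoter without a match, such as that of Fos for the CREB element and the CArG box, may therefore still hold one.

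Btg2, a gene that is also a known p53 target, was read by 2 bright probe sets. Probe set 1416250_at read 2270 and 1698 as deposited in hypomorph replicates 1 and 2, against 1668 and 2602 in the controls. Probe set 1448272_at had 1978 and 1594 in the hypomorphs, against 987 and 1343 in the controls. As deposited, the groups overlapped for the former, while for the latter both hypomorph arrays were above both controls.

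After centring, 1416250_at had a mean log2 signal of 10.78 ± 0.03 (SD, n = 2) in the hypomorphs and 11.19 ± 0.31 (SD, n = 2) in the controls. Its change was -0.41 ± 0.16 (SE), with a 95% confidence interval of -0.77 to -0.06, an unadjusted p of 0.0259 and a limma adjusted p of 0.281. Relative to the median of all tested probe sets the change was -0.60, lower than in all but 3.5% of them. Both hypomorph arrays were below both controls, and the control arrays differed from each other by 0.44, slightly more than the groups did. Without control replicate 2 the change was -0.19, without control replicate 1 it was -0.63, and without centring -0.09. With quantile normalization it was -0.60 with an adjusted p of 0.600.

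Probe set 1448272_at had a change of the other sign. Its mean log2 signal was 10.63 ± 0.10 (SD, n = 2) in the hypomorphs and 10.34 ± 0.17 (SD, n = 2) in the controls, a change of 0.30 ± 0.14 (SE; 95% confidence interval -0.01 to 0.61, limma adjusted p 0.321). Relative to the overall median this was 0.11. Without control replicate 1 the change was 0.17. The groups did not overlap after centring on the common median, but they did when arrays were centred on the tested probe sets and with quantile normalization, where the change was 0.08.

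How far both probe sets diverged can be read without any scaling, because they are on the same array. The ratio does not give the sign of either change, and without centring that of 1416250_at was close to 0, as above. The log2 ratio of 1416250_at over 1448272_at was 0.20 and 0.09 in the hypomorphs, against 0.76 and 0.95 in the controls. Both hypomorph ratios were thus far below both control ratios, and the gap between the groups exceeded the spread within either. The change in the log2 ratio was -0.71 ± 0.12 (SE; 95% confidence interval -0.99 to -0.43, unadjusted p 0.000221).

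This ratio was examined after the values of both probe sets had been seen. It was therefore fitted for every gene with at least 2 tested probe sets, each by its brightest pair, and adjusted over all of them. Btg2 ranked 5 by p-value of 4857 genes and did not pass, with a limma adjusted p of 0.204. Ratios of 3 genes (0.0618%) passed, those of Ctse, Pan3 and Ramp1, and 274 had an unadjusted p under 0.05. A change in ratio at least as large as that of Btg2 was seen in 3.2% of genes. With no variance trend the limma adjusted p of the Btg2 ratio was 0.811. Without hypomorph replicate 1 its change was -0.76, and without control replicate 2 it was -0.61.

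In the order of genes on mouse chromosome 1, counting genes named by the array, Btg2 lies 206 places after Atg16l1 and 34 places after Ctse. Ctse (cathepsin E, an aspartic protease) lies 172 places after Atg16l1, and Ramp1, the receptor accessory gene, 25 places after it. Pan3, a deadenylase subunit, lies on chromosome 5. These are positions only, and the probe sequences of both Btg2 probe sets were not used here.

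**Figure D2:**
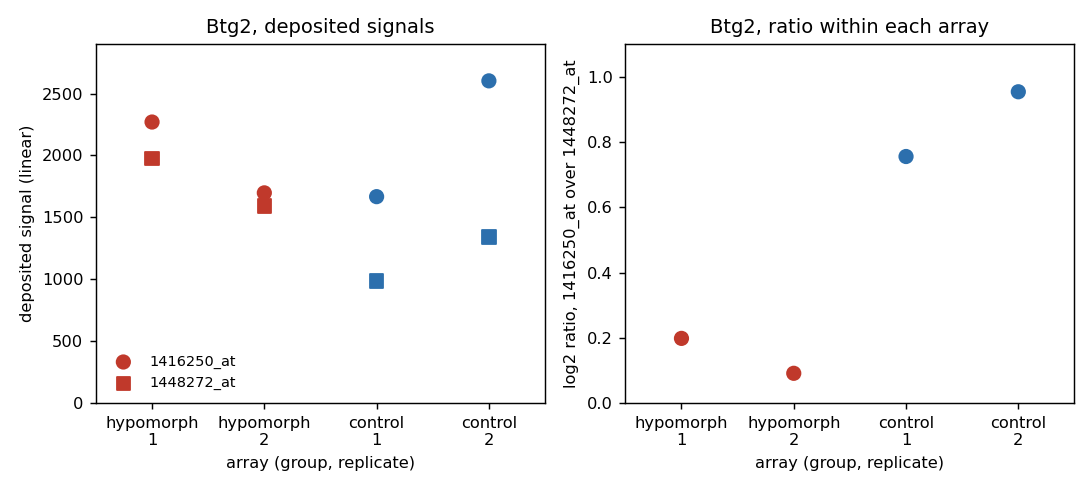
Both Btg2 probe sets on the 4 arrays (red hypomorph, blue control): deposited linear signals on the left, with circles for 1416250_at and squares for 1448272_at, and the log2 ratio of the former over the latter within each array on the right. The ratio was 0.20 and 0.09 in the hypomorphs, against 0.76 and 0.95 in the controls.

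Markers of other cell types lay on both sides of the median of all tested probe sets. Above it were 3 of 4 tested thymic epithelium markers and 5 of 6 tested granulocyte markers. So were 1 of 2 fibroblast and endothelium markers and 1 of 1 erythroid marker. Of 5 tested B cell markers 4 lay below the overall median, and their summed signal scaled to a common array median was 399 and 407 in the hypomorphs, against 489 and 615 in the controls. The 6 tested macrophage markers and the 7 tested dendritic cell markers all lay below it too, with scaled sums of 573 and 340 against 618 and 529, and of 2752 and 2851 against 3558 and 3177. Most of the dendritic cell sum came from H2-Aa, Cd74 and H2-Ab1. In hypomorph replicate 1 their deposited signals were 1482, 1393 and 506, of a deposited sum of 3612. Whether the B cell, macrophage and dendritic cell lists are separate readings was not tested. No marker of these 3 lists was at 0, the lowest signals being 20.9, 11.4 and 13.6. The part of any marker list in the values of either Btg2 probe set was not tested.

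Btg1, the closest relative of Btg2, had changes near 0 on all 3 of its probe sets. Its brightest probe set 1426083_a_at had signals of 8294 and 6111 in the hypomorphs, against 5320 and 5862 in the controls. Once centred these were 12.63 and 12.64 against 12.64 and 12.58 on the log2 scale, so that all 4 arrays lay within 0.06 of each other. The change was 0.02 ± 0.15 (SE; 95% confidence interval -0.31 to 0.36). The second probe set, 1437455_a_at, was at -0.03 and the third, 1442018_at, at -0.04, with a gap of 0.45 between its control arrays. Without control replicate 2 the brightest was at -0.0087 and the third at 0.18. Relative to the overall median the 3 were at -0.16, -0.21 and -0.23. The ratio of both brighter Btg1 probe sets changed by 0.05 (limma adjusted p 0.977 over all such pairs), and whether it differed from that of Btg2 was not tested.

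Among the AP-1 genes, Fos had a change closest to 0. Its only probe set had signals of 74.7 and 62.3 in the hypomorphs, against 54.0 and 54.5 in the controls, higher in both hypomorphs as deposited. After centring the values were 5.87 and 6.08 against 6.08 and 5.89, fully interleaved. The change was -0.01 ± 0.25 (SE), with a 95% confidence interval of -0.56 to 0.54, a range that holds changes of that size either way. It was 0.092 without hypomorph replicate 1 and 0.084 without control replicate 1.

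Jun, the usual partner of FOS, had the largest positive change among the AP-1 members of the set. Probe set 1417409_at had signals of 59.9 and 37.8 in the hypomorphs, against 29.6 and 25.3 in the controls. Both hypomorph arrays were above both controls, by 0.42 ± 0.32 (SE) on the log2 scale and 0.24 relative to the overall median (95% confidence interval of the change -0.27 to 1.12, limma adjusted p 0.494). The probe set was only just above the brightness limit, at the 54.9th percentile of all probe sets. Without control replicate 2 the change was 0.22, which was level with the median of all tested probe sets in that setting (-0.0049 relative to it). The other Jun probe set, 1448694_at, was too dim to test and lay the other way, with signals of 25.6, 13.3, 10.8 and 24.0 in the order hypomorph replicates 1 and 2, control replicates 1 and 2.

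Junb, which forms a weaker AP-1 activator than JUN, had signals of 149 and 115 in the hypomorphs, against 73.6 and 115 in the controls. Control replicate 1 was the low array, and the other three were close together after centring, at 6.85, 6.94 and 6.94 against 6.51. The change was 0.17 ± 0.21 (SE; limma adjusted p 0.691). Without control replicate 1 it was -0.04, so its sign rested on that array.

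Jund, the AP-1 member with the steadiest expression in many cells, was bright on 1449117_at, with signals of 3253 and 2739 in the hypomorphs, against 2248 and 2228 in the controls. After centring the groups overlapped and the change was 0.09 ± 0.15 (SE; 95% confidence interval -0.24 to 0.41). It was -0.09 when arrays were centred on the tested probe sets, -0.020 without control replicate 2 and -0.017 without hypomorph replicate 2. The dim probe set 1440265_at had signals of 19.6 and 8.06 against 10.8 and 23.1 and was not tested.

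**Figure D3:**
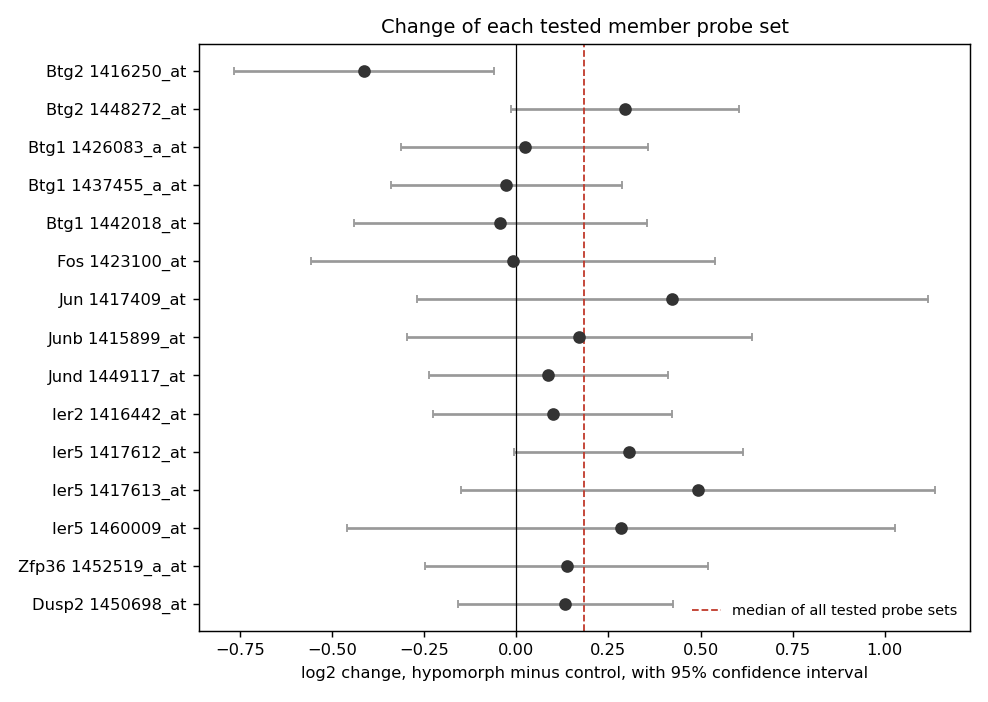
Log2 change (hypomorph minus control, points) of the 15 tested member probe sets with limma's 95% confidence interval (bars); the dashed line is the median change of all tested probe sets, 0.18. The interval of Btg2 1416250_at, -0.77 to -0.06, lies below both 0 and the dashed line, and the intervals of the other 14 probe sets include both.

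Ier5, an early response gene that feeds back on heat shock factor activity, was higher in the hypomorph arrays on all 3 of its probe sets. The brightest, 1417612_at, had signals of 622 and 530 in the hypomorphs, against 354 and 386 in the controls. Its change was 0.31 ± 0.14 (SE; 95% confidence interval -0.01 to 0.62, unadjusted p 0.0538, limma adjusted p 0.314). The probe set 1417613_at had signals of 78.3 and 56.4 against 27.2 and 48.9, a change of 0.49, and 1460009_at had 40.5 and 32.3 against 18.9 and 27.6, a change of 0.28.

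The groups did not overlap for any of the 3 after centring, and the probe sets share the same animals and gene, so they are not 3 independent observations. Relative to the overall median they were at 0.12, 0.31 and 0.10. With quantile normalization the brightest was at 0.05 and its groups overlapped, while 1417613_at was at 0.43 and still separate. Without control replicate 1 the change of 1417613_at was 0.20 and that of 1460009_at 0.14, and without hypomorph replicate 2 that of 1417612_at was 0.19. These lay 0.065, 0.0065 and 0.032 above the median of all tested probe sets under the same settings. Ier5 also lies on chromosome 1, 312 places after Atg16l1.

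Ier2, a small nuclear protein of the early response, had signals of 403 and 339 in the hypomorphs, against 263 and 286 in the controls. The deposited values were separate, but the centred ones overlapped, at 8.27 and 8.48 against 8.32 and 8.24. Its change was 0.10 ± 0.15 (SE; 95% confidence interval -0.23 to 0.42), and -0.0052 without hypomorph replicate 2.

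Zfp36, also known as tristetraprolin, had signals of 668 and 505 in the hypomorphs, against 325 and 544 in the controls. Centred, the hypomorph arrays both lay between the control arrays (8.62 and 9.16). The change was 0.14 ± 0.17 (SE), and -0.13 without control replicate 1. Zfp36 and Junb had the most alike profiles of all pairs of members, by a narrow margin. The root mean square difference over the 4 arrays between their deviations from their own means was 0.044. Nearly as close were Ier2 and Dusp2 at 0.046, Jund and Ier2 at 0.048 and Fos and Jund at 0.049. Whether any of these likenesses between members exceeds chance was not tested.

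Control replicate 1, the lowest array for both Zfp36 and Junb, was also low in granulocyte markers. Their summed signal scaled to a common array median was 2229 and 3709 in the hypomorphs, against 651 in control replicate 1 and 5804 in control replicate 2. Of 6 tested granulocyte markers 5 lay above the overall median, and none of the 8 on the array was at 0. Their part in the Junb and Zfp36 values was not tested.

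Dusp2, the nuclear MAP kinase phosphatase, had signals of 662 and 513 in the hypomorphs, against 403 and 444 in the controls. Centred, these became 8.98 and 9.07 against 8.93 and 8.87, separate but close. The change of 0.13 ± 0.13 (SE; limma adjusted p 0.615) was 0.05 below the overall median and turned to -0.11 with quantile normalization.

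Complete separation of the groups was seen in 6 of 15 tested member probe sets on the higher side and 2 of 15 on the lower side, where all tested probe sets showed it in 43.8% and 7.04%. The higher ones were 1 of Btg2, 1 of Jun, 3 of Ier5 and 1 of Dusp2, and the lower ones 1 of Btg2 and 1 of Btg1. That of Btg1, 1437455_a_at, was separate by very little. Its centred values were 12.04 and 12.06 in the hypomorphs, against 12.09 and 12.07 in the controls. These counts moved with the scaling. As deposited they were 10 and 0 of 15, when arrays were centred on the tested probe sets they were 1 and 4, and with quantile normalization 3 and 2. The corresponding shares of all tested probe sets were 65.9% and 0.635%, 20.5% and 18.8%, and 19.5% and 18.2%. Only Ier5 1417613_at was separate on the higher side under all 4 scalings, and Btg2 1416250_at was separate on the lower side under the 3 that bring the arrays to a common level.

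**Figure D4:**
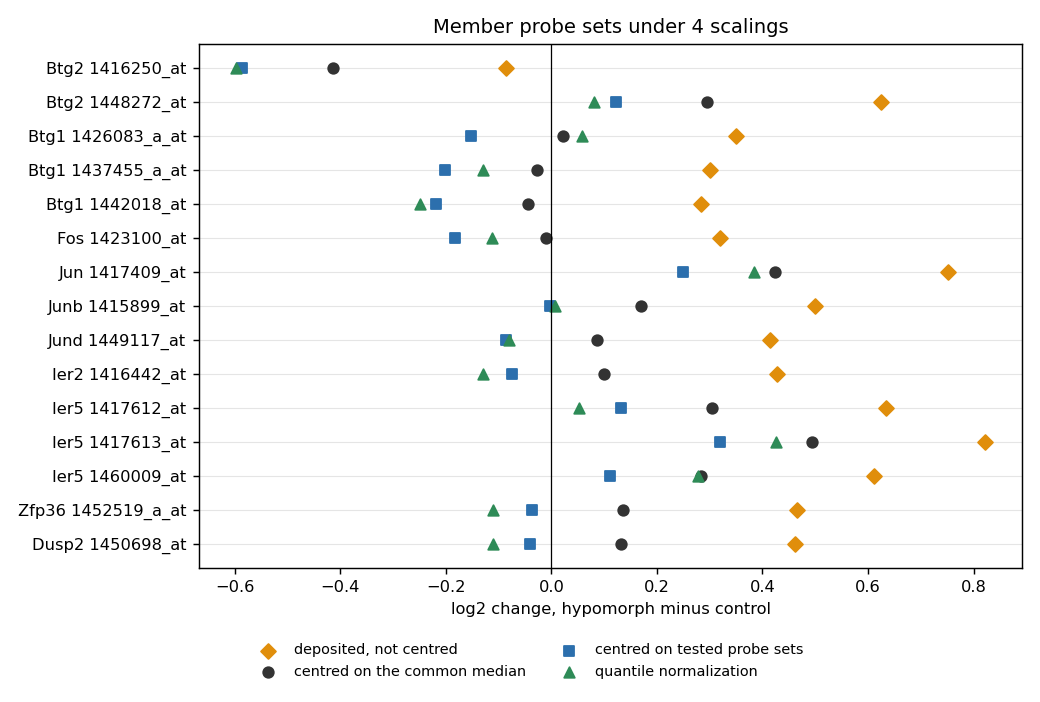
Log2 change (hypomorph minus control) of the 15 tested member probe sets (rows) under 4 scalings of the arrays: as deposited (orange), centred on the common median (black), centred on the tested probe sets (blue) and quantile normalized (green). Btg2 1416250_at is below 0 under all 4, from -0.09 to -0.60, both its partner probe set and the Jun and Ier5 probe sets are above 0 under all 4, and the other probe sets lie on either side of 0 depending on the scaling.

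Members differed in the array on which they were highest or lowest. By brightest probe set, hypomorph replicate 2 was the highest array for 5 of 10 genes and control replicate 2 the lowest for 6. The profile of Btg2 1416250_at stood farthest from that of Jun, at a root mean square difference of 0.52 over the 4 arrays. Next came that of Ier5, at 0.41. The other Btg2 probe set, 1448272_at, had a change of the other sign and was not compared in this way. Among all 10234 other tested genes, the profiles closest to Btg2 1416250_at were those of Cacng4, Il17re and Ptprk, at 0.04, 0.04 and 0.05. The median gene was at 0.36. Those closest to Fos were Abraxas1, Cacng7 and Bbs10, at 0.01, 0.02 and 0.02. These are the smallest of 10234 distances over only 4 arrays, where close profiles can arise by chance. Whether any of these likenesses exceeds chance was not tested.

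No gene of the wider pathway was called either. In 7 lists of related genes, 0 of 65 tested genes passed, and at an unadjusted p under 0.05 there were 9 higher (13.8%) and 0 lower, where 14.9% and 1.19% of all tested probe sets were. List medians ran from 0.08 to 0.29, where the median of all tested probe sets was 0.18. The lists count each gene once by its brightest probe set. Counted so, all tested genes had a median of 0.21, and 5740 of 10235 lay above 0.18. In the remaining AP-1 family the smallest p-values belonged to Atf2 (0.32), Maf (-0.47) and Batf (0.51), none past the adjusted threshold. Batf was at 0.054 without control replicate 2, and Maf at -0.25 without hypomorph replicate 2. Of the SRF, ETS and MAP kinase genes upstream, 8 of 17 lay above the overall median and 9 below. The ribosomal S6 kinase gene Rps6ka3, at 0.43 (limma adjusted p 0.247), the SRF partner Elk4, at 0.29, and the JNK gene Mapk9, at 0.32, came first. Mapk9 was at 0.15 without control replicate 1.

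Other early response genes were divided evenly, with 8 of 16 above the overall median. Dusp1, another nuclear MAP kinase phosphatase, had a change of 0.46, Cd69, an early activation antigen, 0.32 and Tnfaip3, which dampens NF-kappaB, 0.32, with limma adjusted p-values of 0.262, 0.284 and 0.304. Tnfaip3 was at 0.18 without control replicate 1. Of the MAP kinase phosphatases 5 of 7 lay above, including Dusp16 (0.43), Dusp6 (0.29) and Dusp10 (0.27), which were at 0.29, 0.14 and 0.098 without control replicate 1. In the BTG and TOB family with its deadenylase partners 3 of 7 did: the antiproliferative gene Tob1 was at 0.33, and the CCR4-NOT subunit genes Cnot6 and Cnot8 at 0.24 and 0.22. Relative to the median of all tested probe sets Cnot8 was only at 0.035, and at -0.041 with quantile normalization.

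Of 6 relatives of ZFP36 and AU-rich element binding proteins 3 lay above, led by Elavl1 at 0.35, which stabilises AU-rich mRNAs, then Hnrnpd at 0.22 and Zfp36l2 at 0.26. Relative to the median of all tested probe sets Hnrnpd was only at 0.0385, and at -0.034 without control replicate 2. Zfp36l2 was at -0.14 without control replicate 2 and 0.67 without control replicate 1. Of 6 tested Egr and Nr4a genes 3 lay above. Egr2 had the smallest p-value there, at a change of 0.45 (limma adjusted p 0.284), and without hypomorph replicate 2 it was 0.21. Nr4a3 was at 0.29 and Egr3 at 0.20, and without hypomorph replicate 2 they were at -0.18 and -0.091. None of these genes passed.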

How the data were processed

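Thymocyte RNA was column-purified, biotin-labelled and read on 1 Affymetrix array per mouse, per the labels' protocols. The authors deposited probe set intensities on a linear scale. GCOS, Affymetrix software, is the tool named in the submitters' processing notes, and how it scaled the arrays is not stated there.

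After leaving out 64 control probe sets of 45101, log2(signal + 2.29) was taken (the 10th percentile of all signals) and array medians, which spanned 0.66, were set equal by centring. The 22519 probe sets with a mean at or above the median were tested together with limma 3.58.1 in R 4.3.3 (variance trend, two-sided, no covariates, Benjamini-Hochberg, threshold 0.05). The procedure was tested on simulated data. Genes were named from probe sets with 1 symbol in the platform annotation (34945 probe sets, against 932 with several and 9160 with none). Named genes are all members, and from each related list those with the smallest p, up to 3. The members and lists were chosen with earlier results of these data known. The number of arrays limits precision.

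The alternatives covered scaling, pseudocount, filter, variance model, replicate block and leaving out each array. The test of probe set ratios was added after seeing the data.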

Additional observations from a re-analysis of the deposited data

How the results depend on the processing

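Under all 13 alternatives no tested member probe set was called, so the count stayed at 0, while the count over all probe sets, 14, became 4 with quantile normalization, 7 when centred on tested probe sets, 84 when not centred, 4 with no filter, 0 with no variance trend (2492 at an unadjusted p under 0.05) and 9 with the replicate block, and 8 to 340 when leaving out an array. The median change of the tested member probe sets, 0.13, was -0.080 with quantile normalization, -0.041 when centred on tested probe sets, 0.46 when not centred and 0.18 with the pseudocount at the 25th percentile, and 0.088 to 0.19 when leaving out an array. Relative to the median of all tested probe sets it was -0.05, and ran from -0.13 with the filter at the 75th percentile to 0.0065 without control replicate 1, with -0.0001 with no filter. The change in the Btg2 ratio stayed below 0 under every alternative run, from -0.81 to -0.61 when leaving out an array. It passed in no fit that kept all 4 arrays. Its limma adjusted p in those fits ran from 0.152 with the pseudocount at the 25th percentile to 0.811 with no variance trend.

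The replicate numbers are shared by both groups, but the animals are described as independent. Deviations of same-numbered arrays correlated at 0.08, and with the replicate block no call among the members changed. A group left with 1 array was taken to vary like the other. Of 21 named genes from the related lists, leaving out 1 array turned the sign of 3 and moved 11 by over 1.5 times. It brought 7 of the 21 to the other side of the median of all tested probe sets under the same setting. The dim probe sets of Jun and Jund fell under the brightness limit.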
